A study of Homo sapiens with 15 samples.

Results

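The mitochondrial ribosomal protein genes are the nuclear genes for the proteins of the ribosome inside mitochondria. They were taken from the normalized count table by symbol, as every row named MRPL (large subunit) or MRPS (small subunit) followed by a number and at most a single letter A, B or C. This gave 76 of the 55773 rows, 47 with MRPL and 29 with MRPS symbols, and 66 pseudogene rows and 1 antisense row were left out. The rule itself uses no measured value.

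The 15 RNA-seq libraries came from human HEK293-derived cells, a line of embryonic kidney origin, in 5 groups of 3. The study asked, per its title, how the CCCH zinc-finger RNA-binding proteins ZC3H7A and ZC3H7B act on mRNA stability and translation in a codon-dependent way. For overexpression, HEK293-based Flp-In T-REx lines carried a transgene for Flag/HA-ZC3H7A, for Flag/HA-ZC3H7B or for the Flag/HA control tag, and all 3 groups received doxycycline at 1 µg/mL for 24 h. In the depletion experiment, DD cells combined a ZC3H7A knockout with an shRNA against ZC3H7B, and Parental cells carried a control shRNA. Both depletion groups had been under puromycin at 5 µg/mL and were released from it 2 passages before harvest. The overexpression samples are labelled as independent replicates, but the sources used here do not say whether the DD and Parental samples were separate cultures, nor whether each line was a clone or a pool. Their p-values therefore measure the spread between these samples, which may be technical. The library protocols differed between the experiments, so each was fitted on its own.

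Mitochondrial ribosomes translate the few mRNAs of the mitochondrial genome, which encode core subunits of the respiratory chain and of ATP synthase. Their RNAs are made in the organelle, but their proteins are encoded in the nucleus, made in the cytosol and imported. Some of the proteins have counterparts in bacterial ribosomes and others are found in mitochondria alone. An mRNA codes each amino acid by 3 bases, and most amino acids can be written with a codon whose last base is A or T (U in the RNA) or with another whose last base is G or C.

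The genes differ widely in this last base, and their order along it recurs in the results. The first 50 codons of 4 members that changed are shown, from GENCODE 29 on GRCh38, 5′ to 3′, with each last base of a codon that is A or T in capitals. MRPS12 and MRPL34 lie on chromosome 19, MRPL42 on chromosome 12 and MRPL39 on chromosome 21.
MRPS12: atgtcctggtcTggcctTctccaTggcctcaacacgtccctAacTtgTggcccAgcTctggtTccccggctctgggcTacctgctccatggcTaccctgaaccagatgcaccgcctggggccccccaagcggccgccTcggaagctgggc
MRPL34: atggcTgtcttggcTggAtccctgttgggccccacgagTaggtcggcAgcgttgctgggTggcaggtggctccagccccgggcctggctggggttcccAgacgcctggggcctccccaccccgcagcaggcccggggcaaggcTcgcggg
MRPL42: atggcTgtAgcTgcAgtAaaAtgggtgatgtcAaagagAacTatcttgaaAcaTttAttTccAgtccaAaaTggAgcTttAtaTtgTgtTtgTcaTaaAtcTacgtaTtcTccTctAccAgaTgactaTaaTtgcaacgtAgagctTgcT
MRPL39: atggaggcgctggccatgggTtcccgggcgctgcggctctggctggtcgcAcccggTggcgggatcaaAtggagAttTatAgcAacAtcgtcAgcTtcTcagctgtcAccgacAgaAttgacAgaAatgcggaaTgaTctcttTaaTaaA
Of these 50 codons, 12 end in A or T in MRPS12, 8 in MRPL34, 37 in MRPL42 and 22 in MRPL39. Over the whole coding sequence the shares were 19.6% in MRPS12, 15.2% in MRPL34, 69.7% in MRPL42 and 60.4% in MRPL39. Across the 76 genes the share ran between 9.49% and 70.9% with a median of 43.2%, against a median of 39.2% over 19021 coding genes.

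Promoters were read from RefSeq on GRCh38.p14, 250 bases before to 50 after the transcription start. Of the 76 genes, 68 matched, MRPS36 under its current symbol KGD4, and MRPL2, MRPL10, MRPL13, MRPL15, MRPL21, MRPL23, MRPL35 and MRPS28 did not. They were searched on both strands for 3 motifs of factors known for nuclear genes of mitochondria: the NRF1 core GCATGCGC, the ETS core CCGGAAG and the YY1 core AAGATGGC. A promoter of each kind of behaviour is shown, with motif letters in capitals on either strand: MRPS12 (chr19:38930704-38931003, plus strand) rose, MRPL42 (chr12:93467264-93467563, plus strand) fell, and MRPS18B (chr6:30617590-30617889, plus strand) rose with overexpression and fell in DD.
MRPS12: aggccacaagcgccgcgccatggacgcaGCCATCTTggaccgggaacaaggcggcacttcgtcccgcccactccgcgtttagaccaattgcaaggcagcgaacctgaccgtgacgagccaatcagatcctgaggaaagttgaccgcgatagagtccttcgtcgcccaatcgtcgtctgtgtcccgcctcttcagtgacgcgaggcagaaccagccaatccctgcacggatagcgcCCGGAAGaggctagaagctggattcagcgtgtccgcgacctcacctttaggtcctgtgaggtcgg
MRPL42: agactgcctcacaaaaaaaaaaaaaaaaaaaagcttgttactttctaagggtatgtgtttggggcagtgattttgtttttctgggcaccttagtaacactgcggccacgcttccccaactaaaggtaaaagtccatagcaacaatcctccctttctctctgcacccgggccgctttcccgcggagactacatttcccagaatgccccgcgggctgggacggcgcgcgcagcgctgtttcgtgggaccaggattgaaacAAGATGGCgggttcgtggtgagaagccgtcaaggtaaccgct
MRPS18B: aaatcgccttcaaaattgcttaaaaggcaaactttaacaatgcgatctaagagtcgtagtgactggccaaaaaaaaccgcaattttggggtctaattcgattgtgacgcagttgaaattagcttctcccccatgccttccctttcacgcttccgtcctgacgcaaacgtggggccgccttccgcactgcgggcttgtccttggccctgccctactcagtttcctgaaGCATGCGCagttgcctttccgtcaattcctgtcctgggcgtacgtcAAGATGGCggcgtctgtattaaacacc
The MRPS12 promoter holds a YY1 core, read on the opposite strand, and an ETS core. The MRPL42 promoter holds a YY1 core, and the MRPS18B promoter an NRF1 core and a YY1 core. The YY1 core was in 21 of the 68 matched promoters (30.9%), against 3.53% of 22199 promoters of coding genes. The ETS core was in 27 (39.7%), against 12.8%, and the NRF1 core in 6 (8.82%), against 3.74%. At least 1 of them was in 41 (60.3%), against 18.4%, and no ETS and YY1 match shared a base in these promoters. A match is a description of the letters and not of binding.

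Libraries held 45.5 M to 57.6 M reads for overexpression and 12.2 M to 15.5 M for depletion. Spread within a group, as a biological coefficient of variation, was 8.84% with ZC3H7A, 4.33% with ZC3H7B, 2.03% in the control, 4.82% in DD and 10.3% in Parental. The targeted genes moved with the labels except ZC3H7A in DD. Its log2 fold change was 1.77 with ZC3H7A, and that of ZC3H7B was 2.19 with ZC3H7B and -2.58 in DD. The other of the pair moved too: ZC3H7B had a log2 fold change of 0.42 with ZC3H7A (limma adjusted p = 5.19e-06), and ZC3H7A one of -0.68 with ZC3H7B (6.91e-06). ZC3H7A transcripts had a log2 fold change of 0.05 in DD against Parental (limma adjusted p = 0.666); a knockout need not remove the transcript, so this value does not check the label. Of 6 genes known for HEK293 cells, 6 averaged at least 10 normalized counts in each overexpression group and 5 in DD and Parental, while 0 of 5 markers of mature kidney did so in any group. The summed value of 5 leukocyte markers was 48.2 to 66.3 normalized counts with ZC3H7A and 9.13 to 15.1 with ZC3H7B, against 19.6 to 20.8 in the control, and 68.2 to 84.3 in DD, against 13.1 to 19.98 in Parental. PTPRC and CD3E were at 0 in DD and Parental. The 6 HEK293 genes summed to 22589 to 23740 with ZC3H7A and 22480 to 23670 with ZC3H7B, against 16585 to 17131 in the control, and to 40085 to 43202 in DD, against 35656 to 38418 in Parental. The sum of 5 fibroblast markers was 275 to 297 with ZC3H7A and 267 to 320 with ZC3H7B, against 188 to 220 in the control, with 2 of the 5 averaging at least 10, and it overlapped between DD and Parental. The part of these markers in the results was not tested.

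Nearly all the genes were expressed. Values are normalized counts, which are whole reads divided by a factor for each library. In the depletion and overexpression fits alike, 75 of the 76 passed the filter of at least 10 in at least 3 libraries. MRPL30, a large subunit protein, did not: it had 1.28, 1.61 and 1.18 normalized counts with ZC3H7A, 2.45, 2.69 and 2.08 with ZC3H7B, 2.31, 2.29 and 0.529 in the control, 0, 0 and 0 in DD and 0, 4.93 and 0 in Parental. Per kilobase of mRNA (median length of the gene's coding transcripts), MRPL51, MRPS34 and MRPL28 were highest in the control, at 7580, 5965 and 4588 normalized counts. MRPL51, MRPL37 and MRPS34 led in Parental, at 5689, 4735 and 4337. Of these, MRPL51 overlaps NCAPD2 on the opposite strand, by up to 382 bases between a pair of exons. MRPL28 overlaps TMEM8A on the same strand, and MRPL37 overlaps SSBP3 on the opposite strand. NCAPD2 averaged 9083 normalized counts in the control, and without strand its reads cannot be told apart from those of MRPL51 where the 2 overlap. The lowest in both were MRPL38 (98.0 in the control and 46.3 in Parental), MRPS24 (38.8 in the control and 28.9 in Parental) and MRPL30 (1.08 in the control and 1.04 in Parental). The exons of MRPL38, MRPS24 and MRPL30 overlap those of another gene on the same strand in GENCODE 29. The sources used here do not state how shared reads were counted.

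The genes as a group took a larger share of the reads with overexpression. Together they held 0.596% to 0.615% of each library with ZC3H7A and 0.593% to 0.605% with ZC3H7B, against 0.529% to 0.547% in the control, with no overlap between either group and the control. They held 0.435% to 0.440% in DD and 0.426% to 0.443% in Parental, where the groups overlapped. In RNA of whole cultures, more cells with a transcript and more of it per cell cannot be told apart.

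**Figure D1:**
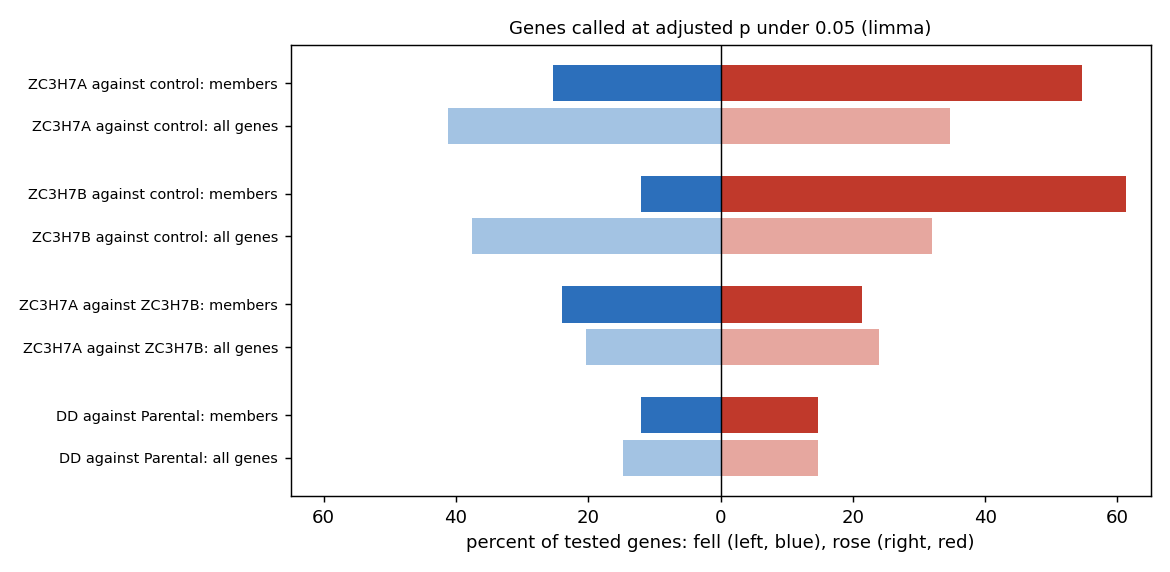
Percent of the 75 tested mitochondrial ribosomal protein genes (dark bars) and of all genes tested (pale bars) that rose (right, red) or fell (left, blue) at a limma adjusted p under 0.05 in each comparison. The dark bars reach further right than the pale ones with ZC3H7A (54.7% against 34.7%) and with ZC3H7B (61.3% against 32.0%), and the bars for rises are equal in DD (14.7%).

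With ZC3H7A, most of the 75 tested genes rose and a smaller group fell. In ZC3H7A against control, 41 rose, 19 fell and 15 did not pass the test (limma, two-sided, Benjamini-Hochberg adjusted p under 0.05 over 17673 genes). Of all genes tested, 34.7% rose and 41.2% fell, against 54.7% and 25.3% of these genes. The balance over all genes turned with the scaling: 38.3% rose and 36.6% fell under TMM, and 40.8% and 34.0% under upper-quartile scaling. Of the members, 48 rose and 16 fell under TMM, and 48 and 15 under upper-quartile scaling. Their median log2 fold change was 0.16, against -0.07 over all genes (0.28 against 0.05 under upper-quartile scaling), and single values lay between -1.07 and 1.46. The libraries of the groups did not overlap for 62 of the 75 (82.7%), against 77.9% of all genes.

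MRPS12, the counterpart of the protein at the decoding centre of the bacterial small subunit, changed most. It had 7930, 7237 and 6990 normalized counts with ZC3H7A, against 2576, 2753 and 2716 in the control. Every ZC3H7A library was above every control library, and the log2 fold change was 1.46 (SE 0.0526, limma adjusted p = 1.12e-09). SARS2, the mitochondrial seryl-tRNA synthetase gene, overlaps MRPS12 on the opposite strand and had a log2 fold change of 1.03; no source used here states whether counting used strand, and shared reads cannot be told apart.

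In the large subunit, 27 of 48 tested genes rose and 11 fell. MRPL4, a protein with a bacterial counterpart, had 4942, 4502 and 4287 normalized counts with ZC3H7A, against 1804, 1978 and 1979 in the control, a log2 fold change of 1.25 (SE 0.0588, limma adjusted p = 5.37e-09). MRPL34, another of bacterial type and with one of the shortest coding sequences, had 1744, 1673 and 1465 with ZC3H7A, against 867, 889 and 883 in the control, a log2 fold change of 0.88 (SE 0.0596, limma adjusted p = 7.95e-08). Neither gene's groups overlapped. MRPL12, which forms the flexible stalk that contacts translation factors, had 3765, 3554 and 3154 with ZC3H7A, against 1871, 1953 and 1886 in the control, a log2 fold change of 0.87 (SE 0.0599, limma adjusted p = 9.10e-08). MRPS18A, which sits in the large subunit despite its symbol, had 892, 879 and 828 with ZC3H7A, against 495, 504 and 514 in the control, a log2 fold change of 0.78 (SE 0.0492, limma adjusted p = 4.71e-08). Every ZC3H7A library was again above every control library.

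Falls in the large subunit were led by MRPL42 and MRPL39. MRPL42, a protein of the large subunit without a bacterial counterpart, had 1824, 1716 and 2201 normalized counts with ZC3H7A, against 3905, 4057 and 4036 in the control, a log2 fold change of -1.07 (SE 0.0765, limma adjusted p = 1.25e-07); the RNA pseudogene RN7SL737P overlaps it on the same strand. MRPL39, also specific to mitochondria, had 1111, 1131 and 1219 with ZC3H7A, against 2065, 2074 and 2101 in the control, a log2 fold change of -0.85 (SE 0.0509, limma adjusted p = 3.06e-08). All libraries of both genes were below the control. On chromosome 21, where MRPL39 lies, 60.1% of 148 tested genes fell with ZC3H7A, against 41.2% of all genes. The median log2 fold change there was -0.39, and its part in the fall of MRPL39 was not tested. MRPL1, the protein of the mobile stalk near the tRNA exit, had 390, 389 and 458 with ZC3H7A, against 649, 689 and 685 in the control, a log2 fold change of -0.71 (SE 0.0715, limma adjusted p = 2.16e-06). MRPL19 and MRPL50 fell by 0.38 and 0.42 on the log2 scale.

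In the small subunit, 14 of 26 tested genes rose and 7 fell. MRPS31, found in mitochondria alone, had 608, 662 and 672 normalized counts with ZC3H7A, against 1090, 1140 and 1148 in the control, a log2 fold change of -0.80 (SE 0.0523, limma adjusted p = 6.20e-08). MRPS25, also without a bacterial counterpart, had 3013, 3290 and 3443 with ZC3H7A, against 4937, 4708 and 4823 in the control, a log2 fold change of -0.57 (SE 0.0518, limma adjusted p = 9.04e-07). The groups of both genes were apart, with ZC3H7A lower. NR2C2, which overlaps MRPS25 on the opposite strand by up to 756 bases between a pair of exons, had a log2 fold change of 0.01. Of the 33 tested members whose exons overlap another gene, 19 rose and 9 fell, and of the 42 others 22 rose and 10 fell. Genes with a bacterial counterpart rose in 19 of 29 cases and fell in 6 in the large subunit, and rose in 9 of 16 and fell in 3 in the small one. Those specific to mitochondria rose in 8 of 19 and fell in 5 in the large subunit, and rose in 5 of 10 and fell in 4 in the small one.

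**Figure D2:**
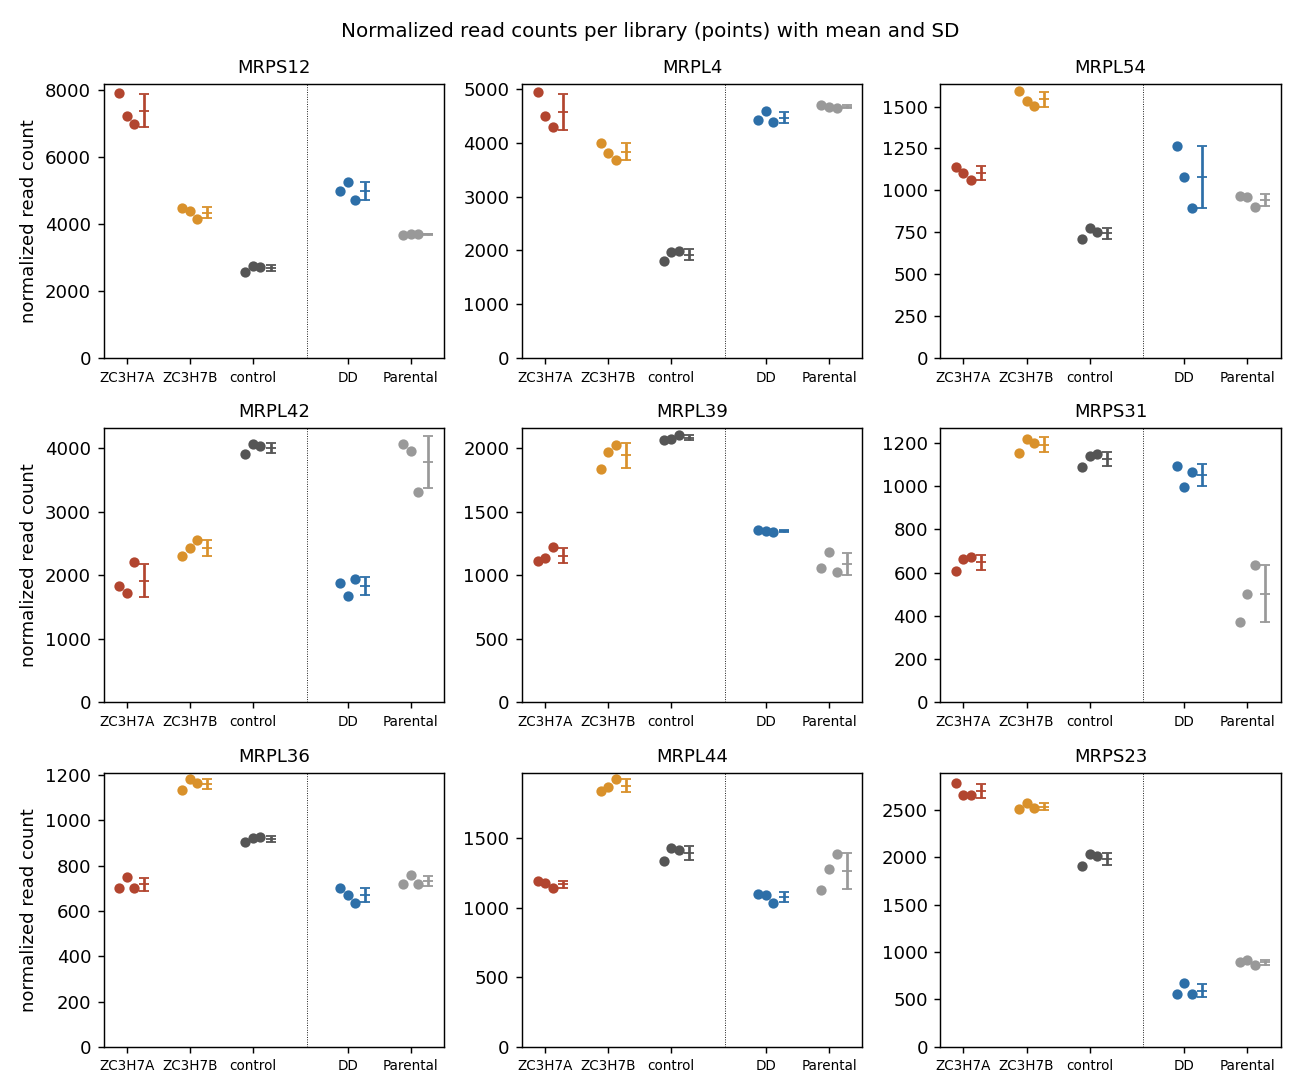
Normalized counts of 9 members in each library (points) with the group mean and SD to their right; the dotted line parts the overexpression from the depletion experiment. Among the overexpression groups MRPS12 and MRPL4 stand highest with ZC3H7A and MRPL54 with ZC3H7B, and MRPL42 is low with ZC3H7A, with ZC3H7B and in DD.

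With ZC3H7B, most of the genes rose and few fell. In ZC3H7B against control, 46 of the 75 rose, 9 fell and 20 did not pass the test. Over all genes 32.0% rose and 37.6% fell, against 61.3% and 12.0% of these genes. Under TMM 37.7% of all genes rose and 31.1% fell, with 54 members rising and 5 falling, and under upper-quartile scaling 39.9% and 29.3%, with 57 and 5. Their median log2 fold change was 0.25, against -0.06 over all genes (0.38 against 0.07 under upper-quartile scaling), with values between -0.72 and 1.05, and the groups did not overlap for 63 (84.0%), against 77.1%. The 2 comparisons share the 3 control libraries, so their values are set side by side only.

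MRPL54, a protein of the large subunit specific to mitochondria, had the largest rise, with 1593, 1536 and 1501 normalized counts with ZC3H7B, against 707, 773 and 751 in the control. All ZC3H7B libraries were above all control libraries, and the log2 fold change was 1.05 (SE 0.0512, limma adjusted p = 1.48e-08). MRPL4 followed with 3996, 3814 and 3682 with ZC3H7B, a log2 fold change of 1.00 (SE 0.0588, limma adjusted p = 4.81e-08), and MRPL34 with 1608, 1593 and 1553, a log2 fold change of 0.85 (SE 0.0596, limma adjusted p = 1.81e-07). MRPS12 had 4488, 4379 and 4150, a log2 fold change of 0.69 (SE 0.0526, limma adjusted p = 3.23e-07), and MRPS18A 803, 818 and 784, a log2 fold change of 0.67 (SE 0.0492, limma adjusted p = 2.60e-07). None of these groups overlapped the control values given above.

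MRPL42 also had the largest fall with ZC3H7B. It had 2304, 2426 and 2549 normalized counts with ZC3H7B, all below the control libraries, and its log2 fold change was -0.72 (SE 0.0765, limma adjusted p = 4.76e-06). MRPL19, of bacterial type, had 1172, 1287 and 1298 with ZC3H7B, against 1715, 1824 and 1770 in the control, a log2 fold change of -0.50 (SE 0.0763, limma adjusted p = 9.26e-05). MRPS25 had 3476, 3382 and 3645, a log2 fold change of -0.46 (SE 0.0518, limma adjusted p = 7.47e-06). The ZC3H7B libraries of MRPL19 and MRPS25 lay below all control libraries. GCFC2 overlaps MRPL19 on the opposite strand, by up to 82 bases between a pair of exons. It had log2 fold changes of -0.93 with ZC3H7A and -0.80 with ZC3H7B. MRPS30, which like MRPS18A belongs to the large subunit despite its symbol, had 1843, 1892 and 1949 with ZC3H7B, against 2373, 2502 and 2362 in the control, a log2 fold change of -0.35 (SE 0.046, limma adjusted p = 2.88e-05). With ZC3H7A its log2 fold change was -0.31. MRPL50 had 655, 724 and 798 with ZC3H7B, against 884, 934 and 899 in the control, a log2 fold change of -0.32 (SE 0.104, limma adjusted p = 0.0148), which did not pass under TMM scaling (adjusted p = 0.0558), under upper-quartile scaling (0.0642), without ZC3H7B replicate 1 (0.0686) or without control replicate 2 (0.0506). With the trend in mRNA A+T content removed it rose with ZC3H7B, at a log2 fold change of 0.63. By subunit, 30 of 48 large subunit genes rose and 5 fell, and 16 of 26 small subunit genes rose and 3 fell.

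MRPS36 was counted by its symbol, although its product is known as a part of the 2-oxoglutarate dehydrogenase complex. It had 561, 567 and 658 normalized counts with ZC3H7A and 565, 577 and 607 with ZC3H7B, against 652, 678 and 651 in the control. Its log2 fold changes were -0.15 (SE 0.0653, limma adjusted p = 0.0499) and -0.18 (SE 0.0653, limma adjusted p = 0.0274). Neither passed under edgeR (adjusted p = 0.121 and 0.117), DESeq2 (0.235 and 0.114), TMM scaling (0.291 and 0.252) or upper-quartile scaling (0.688 and 0.472). Nor did either pass with any single control library left out. With the trend in mRNA A+T content removed MRPS36 rose with both proteins, by 0.81 and 0.77. Its pseudogene rows held 5.00% of the values of gene and pseudogenes together, and those of MRPL45 and MRPL3, at 6.65% and 5.20%, were the only ones higher.

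**Figure D3:**
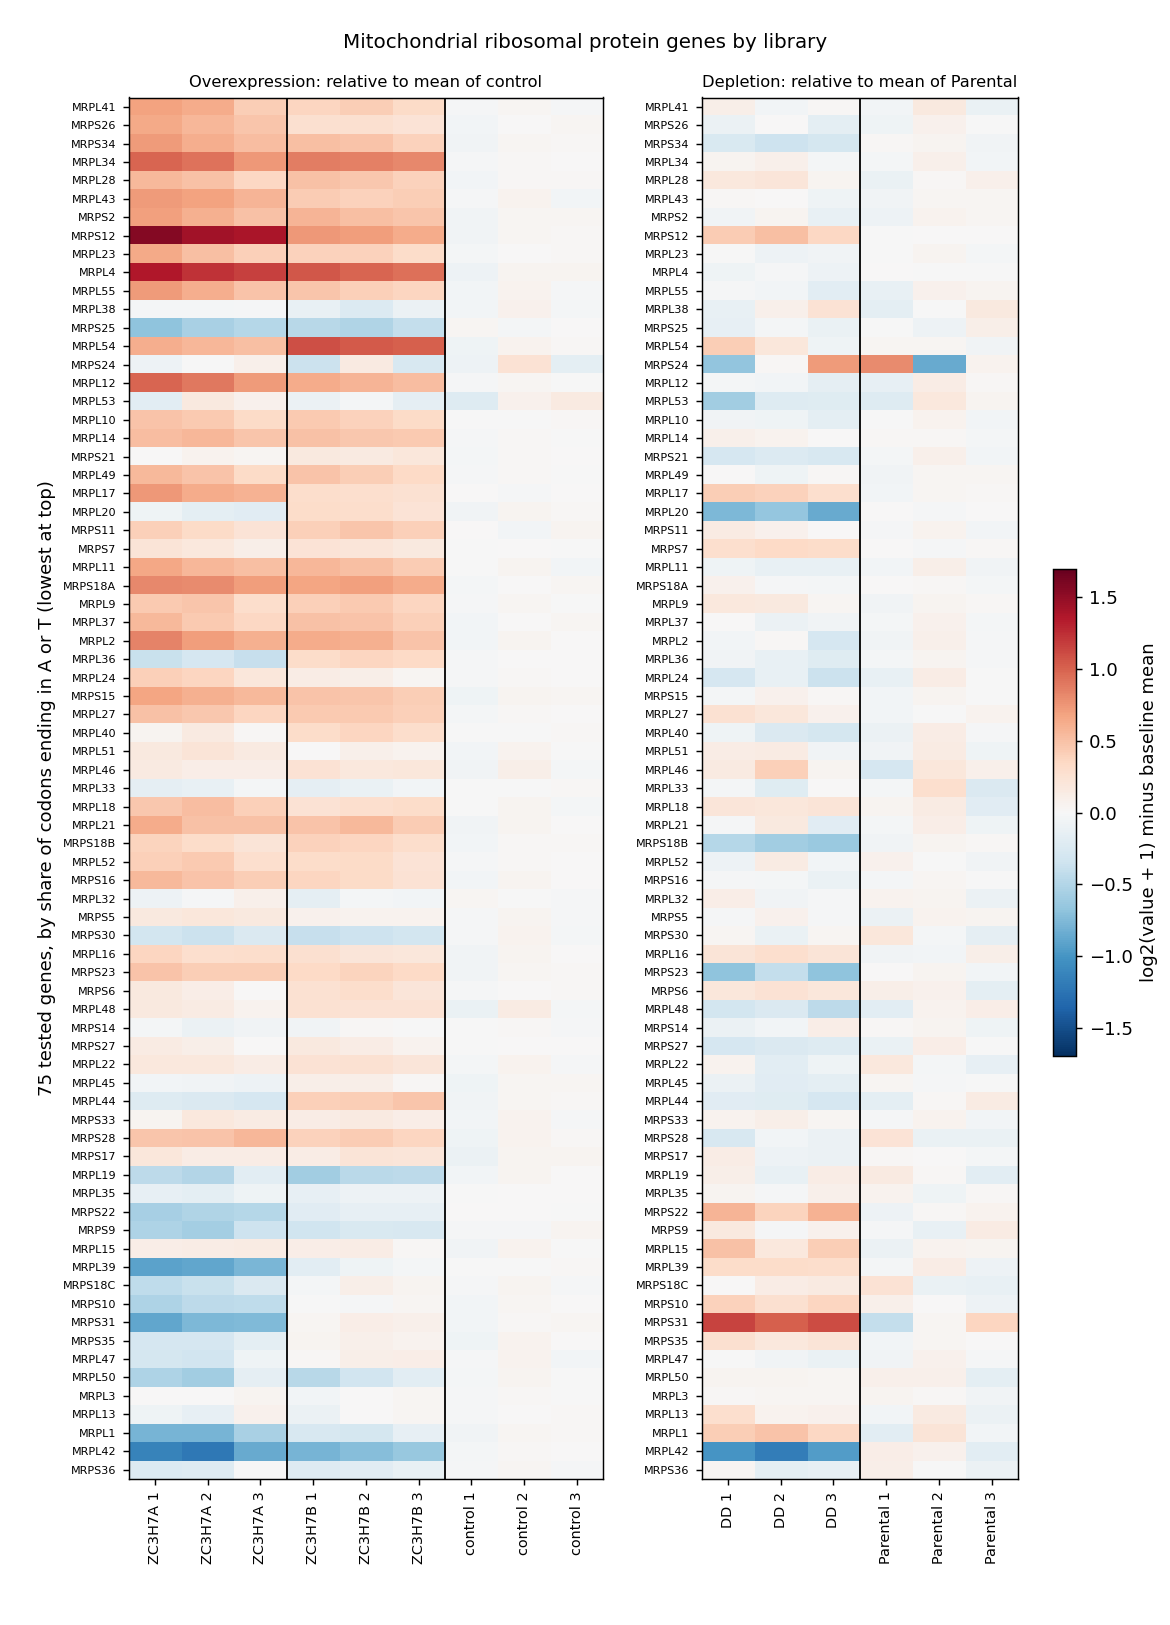
Each row is a tested member, ordered by the share of its codons that end in A or T (lowest at the top), and each column a library; colour is log2(normalized count + 1) minus the mean of the control (left) or Parental (right) libraries. Red rows fill the upper part of the ZC3H7A and ZC3H7B columns, blue rows of the ZC3H7A columns lie mostly at the bottom, and DD columns show few strong rows, among them MRPS31 and MRPL42.

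Fewer members differed between the overexpressed proteins than between either and the control. In ZC3H7A against ZC3H7B, 16 of the 75 were higher with ZC3H7A, 18 were lower and 41 did not pass the test, against 23.9% higher and 20.4% lower over all genes. The median log2 difference was 0.03, against 0.01, and the groups did not overlap for 42 (56.0%), against 49.2%. Without ZC3H7A replicate 1 the count higher with ZC3H7A was 10, and without ZC3H7B replicate 3 it was 8. Over all genes this count went from 4232 of 17673 to 3541 of 17554 and 3608 of 17604. In the large subunit 10 were higher and 10 lower, and in the small subunit 6 and 8.

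MRPS12 had the largest positive difference, 0.77 (SE 0.0526, limma adjusted p = 3.75e-07). MRPL17, a bacterial-type protein of the large subunit, had 2298, 2146 and 2089 normalized counts with ZC3H7A and 1699, 1691 and 1663 with ZC3H7B, a difference of 0.37 (SE 0.0448, limma adjusted p = 3.73e-05). MRPS26, of the small subunit, had 5866, 5560 and 5215 with ZC3H7A and 4556, 4556 and 4400 with ZC3H7B, a difference of 0.30 (SE 0.0466, limma adjusted p = 2.65e-04). MRPL12 and MRPL4 differed by 0.29 and 0.25. The largest negative differences were those of MRPS31, -0.88 (SE 0.0523, limma adjusted p = 1.26e-07), and MRPL39, -0.75 (SE 0.0509, limma adjusted p = 3.33e-07). With ZC3H7B, MRPS31 had 1152, 1220 and 1200 normalized counts and MRPL39 1834, 1970 and 2024, and neither passed the test against the control (log2 fold changes 0.08 and -0.10, limma adjusted p = 0.185 and 0.0994). The MRPS31 call depended on the scaling: it rose with ZC3H7B under TMM (0.17, limma adjusted p = 0.00798), upper-quartile scaling (0.00338), edgeR (0.0276) and DESeq2 (0.0456). MRPL39 fell with ZC3H7B when only the compared groups were fitted (limma adjusted p = 0.0303). Of the 148 tested genes on chromosome 21, where MRPL39 lies, 65.5% were lower with ZC3H7A than with ZC3H7B. Over all genes 20.4% were. The median log2 difference on that chromosome was -0.32.

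For 3 members the overexpressed proteins went opposite ways against the control at the deposited scaling. All fell with ZC3H7A and rose with ZC3H7B. Of them, 2 were not called in DD (2.67% of the members, against 0.755% of 16165 genes). The other 1 fell in DD (1.33%, against 0.804%). The reverse was seen in 0 members, and in 0.724% of all genes not called in DD, 0.489% that rose there and 0.179% that fell there. MRPL36, a small bacterial-type protein of the large subunit, had 702, 749 and 699 normalized counts with ZC3H7A and 1135, 1180 and 1164 with ZC3H7B, against 902, 923 and 925 in the control. MRPL44, which has a fold like ribonuclease III, had 1190, 1173 and 1138 with ZC3H7A and 1838, 1865 and 1924 with ZC3H7B, against 1334, 1426 and 1413 in the control. MRPL20, of bacterial type, had 2595, 2431 and 2386 with ZC3H7A and 3396, 3350 and 3203 with ZC3H7B, against 2623, 2800 and 2748 in the control. The 3 groups were apart for each gene, with the control in the middle. The log2 difference of ZC3H7A from ZC3H7B was -0.69 (SE 0.0467, limma adjusted p = 3.21e-07) for MRPL36, -0.68 (SE 0.0449, limma adjusted p = 2.53e-07) for MRPL44 and -0.42 (SE 0.0464, limma adjusted p = 1.59e-05) for MRPL20. The fall of MRPL20 with ZC3H7A, -0.14 (SE 0.0464, limma adjusted p = 0.0152), did not pass under TMM scaling (0.256), upper-quartile scaling (0.821), edgeR (0.0588) or DESeq2 (0.201), nor without control replicate 2 (0.0686) or 3 (0.0514). MRPL54 rose with both proteins and was lower with ZC3H7A than with ZC3H7B by a log2 difference of -0.49 (SE 0.0512, limma adjusted p = 1.16e-05).

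Depletion moved few of the genes, and in both directions. In DD against Parental, 11 of the 75 rose, 9 fell and 55 did not pass the test over 18494 genes. Of all genes 14.7% rose and 14.8% fell, against 14.7% and 12.0% of these genes. Their median log2 fold change was 0.00, against 0.01 over all genes, with values between -1.04 and 1.09, and the groups did not overlap for 29 (38.7%), against 43.0%. Without DD replicate 1 the counts were 6 and 5, while over all genes they went from 2716 and 2732 of 18494 to 1561 and 2002 of 18185. Without DD replicate 3, 7 members rose, and 1890 of all 18137 genes did. Without Parental replicate 2, 5 members fell, and 1916 of all 18119 genes did. In the large subunit 5 of 48 rose and 4 fell, and in the small subunit 6 of 26 rose and 5 fell.

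MRPS31 had the largest rise in DD, with 1093, 995 and 1064 normalized counts, against 371, 503 and 636 in Parental. The groups did not overlap, though the Parental libraries spread widely, and the log2 fold change was 1.09 (SE 0.155, limma adjusted p = 3.12e-04). MRPS22, a small subunit protein in which inherited mutations cause mitochondrial disease, had 1394, 1220 and 1407 in DD, against 886, 952 and 976 in Parental, a log2 fold change of 0.51 (SE 0.085, limma adjusted p = 8.81e-04). MRPS12 had 4976, 5248 and 4720 in DD, against 3684, 3695 and 3704 in Parental, a log2 fold change of 0.43 (SE 0.0643, limma adjusted p = 4.49e-04). Each DD library was above each Parental library for both genes. MRPL15, of bacterial type, had a log2 fold change of 0.37 (SE 0.0937, limma adjusted p = 0.0115), which did not pass without DD replicate 1 (0.0726) or 3 (0.0524). MRPL1 had one of 0.42 (SE 0.127, limma adjusted p = 0.0275), which did not pass in DESeq2 (0.0625) or when any of 4 libraries (DD 1, 2 or 3, Parental 1) was left out.

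MRPL42 fell in DD as it did with both overexpressed proteins, and was the only 1 of the 75 called lower in all 3 (1.33%), against 4.25% of all genes. It had 1871, 1673 and 1944 normalized counts in DD, against 4065, 3957 and 3314 in Parental, with no overlap, and its log2 fold change was -1.04 (SE 0.0903, limma adjusted p = 8.11e-06). MRPL20 had 1354, 1464 and 1276 in DD, against 2329, 2273 and 2322 in Parental, a log2 fold change of -0.76 (SE 0.0737, limma adjusted p = 1.94e-05). MRPS23, specific to mitochondria and part of the small subunit, had 557, 670 and 556 in DD, against 895, 917 and 865 in Parental, a log2 fold change of -0.59 (SE 0.0965, limma adjusted p = 8.07e-04). All DD libraries of these genes were below all Parental libraries. On chromosome 12, where MRPL42 lies, 31.2% of 801 tested genes fell in DD and 11.1% rose (median -0.13). On chromosome 1, where MRPL20 lies, 23.4% of 1557 fell and 15.9% rose. On chromosome 17, where MRPS23 lies, 13.5% of 933 fell and 17.6% rose. Over all genes 14.8% fell and 14.7% rose, and the part of the chromosomes was not tested. MRPL48 had a log2 fold change of -0.34 (SE 0.105, limma adjusted p = 0.0316) and did not pass with DD replicate 1, DD replicate 3 or Parental replicate 2 left out (0.0837, 0.123 and 0.110).

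MRPS18A, MRPS18B and MRPS18C are related genes whose proteins sit at different places in the ribosome, and their calls differed. MRPS18B, of the small subunit, had 3852, 3698 and 3451 normalized counts with ZC3H7A and 3888, 3839 and 3655 with ZC3H7B, against 2878, 3023 and 3015 in the control. It rose with both, at log2 fold changes of 0.30 (SE 0.0481, limma adjusted p = 1.03e-04) and 0.35 (SE 0.0481, limma adjusted p = 3.75e-05). In DD it had 2244, 2087 and 2028, against 3000, 3230 and 3183 in Parental, and fell, at a log2 fold change of -0.57 (SE 0.0695, limma adjusted p = 1.10e-04). MRPS18C, the form closest to the bacterial protein, had 278, 289 and 319 with ZC3H7A and 370, 403 and 390 with ZC3H7B, against 373, 388 and 371 in the control, and only its ZC3H7A group lay apart from the control, with a log2 fold change of -0.36 (SE 0.0651, limma adjusted p = 3.17e-04). FAM175A overlaps MRPS18C on the opposite strand, by up to 1178 bases between a pair of exons. The log2 fold change of FAM175A was -0.98 with ZC3H7A, -0.52 with ZC3H7B and -0.71 in DD. MRPS18C averaged 318 normalized counts in DD and 300 in Parental, and its libraries overlapped there. MRPS18A rose in both overexpressions as given above and had a log2 fold change of 0.00 in DD (adjusted p = 0.986).

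Set side by side, 30 of the 75 rose with both overexpressed proteins and were not called in DD (40.0%), against 17.7% of 16165 genes tested in both experiments, and 9 were called in none of these 3 comparisons (12.0%), against 10.3%. The genes MRPL16, MRPL17, MRPS7 and MRPS12 rose in all 3 (5.33% of the members, against 6.02% of all genes). Of 17 members called both with ZC3H7A and in DD, 10 had opposite directions (58.8%), against 44.7% of 4199 genes called in both over the whole table. Of 14 called both with ZC3H7B and in DD, 9 were opposed (64.3%), against 49.5% of 3874. MRPS31, MRPS22 and MRPL1 fell with ZC3H7A and rose in DD, whereas MRPS23 and MRPS18B rose with both proteins and fell in DD. Across the 75 genes the Pearson correlation of the DD fold change was -0.040 with that of ZC3H7A and 0.036 with that of ZC3H7B. These describe genes within 2 experiments of 9 and 6 libraries and are not replicated relations.

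**Figure D4:**
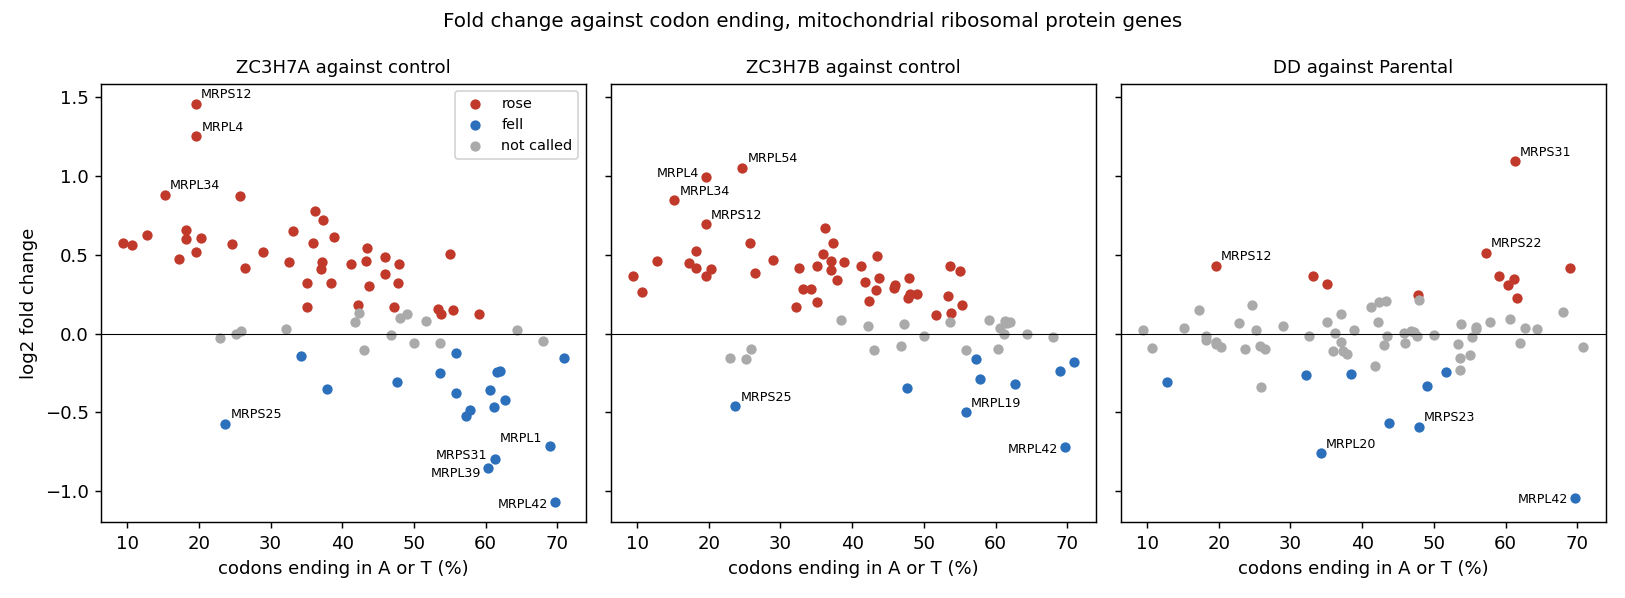
Log2 fold change of each tested member against the share of its codons that end in A or T, for ZC3H7A, ZC3H7B and DD; red points rose, blue points fell and grey points did not pass the test. Rises fill the left of the ZC3H7A and ZC3H7B panels and falls lie mostly at the right, with MRPS25 an exception in both, while rises and falls mix along the DD panel.

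Most members with few codons ending in A or T rose with ZC3H7A, and most of those with many fell. The 75 genes were split by this share into 3 sets of near equal size, at 9.49% to 35.9%, 36.2% to 50.0% and 51.7% to 70.9%. With ZC3H7A, 20 of 26 rose and 2 fell in the low set, 16 of 25 rose and 2 fell in the middle set, and 5 of 24 rose and 15 fell in the high set, with median log2 fold changes of 0.54, 0.32 and -0.24. With ZC3H7B, the counts were 22 and 1, 18 and 1, and 6 and 7, with medians of 0.41, 0.29 and 0.02. In ZC3H7A against ZC3H7B, 10 were higher and 3 lower in the low set, 6 and 3 in the middle set, and 0 and 12 in the high set. In DD the counts were 3 and 3, 1 and 4, and 7 and 2. Over all genes of any codon share, 34.7% rose and 41.2% fell with ZC3H7A, 32.0% and 37.6% with ZC3H7B, and 14.7% and 14.8% in DD. Between the overexpressed proteins, 23.9% were higher and 20.4% lower with ZC3H7A. All genes were not counted within these ranges, so whether the members differ from genes of like share was not tested.

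Across the 75 genes the Pearson correlation of fold change with the share was -0.68 with ZC3H7A, -0.57 with ZC3H7B, -0.50 between the overexpressed proteins and 0.11 in DD. Over all coding genes tested, the same values were -0.45, -0.41, -0.16 and 0.02. The points share the same libraries, and the share followed the A+T content of the whole mRNA (Pearson 0.88 over the 76 genes), so codon ending and mRNA base content cannot be told apart here. MRPS25, with 23.7% of codons ending in A or T, fell with both proteins. When each library's trend with A+T content was removed, 52 of the 75 rose and 12 fell with ZC3H7A. Of the 15235 genes tested then, 6030 rose and 5543 fell. The members' median minus that of all genes was 0.19 with ZC3H7A, against 0.23 with the trend kept. With ZC3H7B this difference was 0.23, against 0.31. In that fit MRPL19, MRPL50, MRPS18C and MRPS36 rose with ZC3H7A, with log2 fold changes of 0.30, 0.54, 0.35 and 0.81, and the fall of MRPL1 did not pass (-0.10, adjusted p = 0.0565). With ZC3H7B, MRPL1, MRPL19, MRPL50 and MRPS36 rose in it by 0.32, 0.13, 0.63 and 0.77 on the log2 scale. MRPL42 fell there too, with log2 fold changes of -0.40 with ZC3H7A and -0.10 with ZC3H7B, and MRPS25 with -0.55 and -0.47.

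The 4 members on chromosome 19, MRPL4, MRPL34, MRPL54 and MRPS12, were chosen for mention after their values were seen. All 4 rose in both overexpressions, with medians of 1.07 with ZC3H7A and 0.92 with ZC3H7B, and they held the 4 largest rises with ZC3H7B. Of the 1080 tested genes on that chromosome, 66.8% rose with ZC3H7A and 64.3% with ZC3H7B, with medians of 0.51 and 0.46. In DD 1 of the 4, MRPS12, rose, and 16.9% of the 1054 genes tested there did.

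Members with and without each promoter motif are described by their counts. Of 21 tested members with a YY1 core, 8 rose and 7 fell with ZC3H7A (median log2 fold change -0.00), against 27 and 11 of the 46 matched members without one (median 0.32). With ZC3H7B the counts were 11 and 3, against 30 and 6. Of 26 with an ETS core, 14 rose and 5 fell with ZC3H7A, against 21 and 13 of 41 without one, and 17 rose and 0 fell with ZC3H7B, against 24 and 9. In DD, 3 of the 21 with a YY1 core rose and 4 fell, as did 7 and 5 of the 46 without one. No test was made of these counts, and members without a match in this window may hold the motif elsewhere.

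Genes that work with the mitochondrial ribosome were counted from lists chosen by function, and their counts stand beside the shares of all genes: 34.7% rose and 41.2% fell with ZC3H7A, 32.0% and 37.6% with ZC3H7B, and 14.7% and 14.8% in DD, with 23.9% higher and 20.4% lower with ZC3H7A than with ZC3H7B. Of 7 ribosomal proteins with other symbols, 4 rose and 1 fell with ZC3H7A, 5 rose and 0 fell with ZC3H7B, 1 was higher and 2 lower with ZC3H7A than with ZC3H7B, and 0 rose and 2 fell in DD. GADD45GIP1, a large subunit protein also known as CRIF1, averaged 5312 ± 427 normalized counts with ZC3H7A and 4490 ± 156 with ZC3H7B, against 2155 ± 31.2 in the control (SD, n = 3 each), with log2 fold changes of 1.30 (SE 0.0549, limma adjusted p = 2.82e-09) and 1.06 (SE 0.0549, limma adjusted p = 2.09e-08). DAP3, a GTP-binding protein of the small subunit, rose by 0.13 with ZC3H7A and 0.23 with ZC3H7B on the log2 scale. AURKAIP1 rose with ZC3H7B by 0.46 and fell in DD, at a log2 fold change of -0.35 (SE 0.0731, limma adjusted p = 0.00407), and ICT1, a peptidyl-tRNA hydrolase built into the large subunit, had one of -0.36 there.

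Of 24 assembly factors, 16 rose and 6 fell with ZC3H7A (all genes 34.7% and 41.2%), 19 rose and 5 fell with ZC3H7B (32.0% and 37.6%), 6 were higher and 5 lower with ZC3H7A than with ZC3H7B, and 5 rose and 1 fell in DD. MPV17L2, an inner membrane protein, rose by 1.05 with ZC3H7A and 0.86 with ZC3H7B on the log2 scale, and MTG2, a GTPase of the large subunit's assembly, by 0.80 and 0.84. MTERFD2, which brings the rRNA methyltransferase NSUN4 to the ribosome, fell with ZC3H7A, at a log2 fold change of -0.76 (SE 0.0427, limma adjusted p = 1.93e-08), and its log2 difference of ZC3H7A from ZC3H7B was -0.61. NOA1, another GTPase, was the assembly factor that fell in DD, at a log2 fold change of -0.38 (SE 0.0749, limma adjusted p = 0.00273), where the helicase gene DDX28 rose by 0.40.

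Of 15 translation factors, 7 rose and 7 fell with ZC3H7A (all genes 34.7% and 41.2%), 6 rose and 6 fell with ZC3H7B (32.0% and 37.6%), 2 were higher and 4 lower with ZC3H7A than with ZC3H7B, and 1 rose and 4 fell in DD. TACO1, an activator of translation of a cytochrome oxidase subunit, rose by 0.59 with ZC3H7A and 0.48 with ZC3H7B on the log2 scale. MTIF2, the initiation factor that brings in the first tRNA, had log2 fold changes of -0.70 (SE 0.0713, limma adjusted p = 2.29e-06) and -0.55 (SE 0.0713, limma adjusted p = 2.31e-05). In DD the elongation factor gene TSFM fell, at a log2 fold change of -0.52 (SE 0.104, limma adjusted p = 0.00278), the gene of the insertase OXA1L had one of -0.31, and the recycling factor gene GFM2 rose by 0.36.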

How the data were processed

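RNA-seq of 15 libraries in 5 groups of 3 was analysed. Per the labels' protocols, the overexpression libraries were poly(A) libraries from detergent lysates made with a TruSeq kit, and a company made the depletion libraries by a protocol of its own. Reads were processed with STAR 2.7.10b, HTSeq and DESeq2 on hg19, per the submitters' processing notes. The deposited values are normalized counts, a signal in which the authors divided whole reads per gene by a factor for each library; dividing by the value of 1 read gave whole reads for 100% of values within 0.01. The members, gene lists and motifs were chosen with earlier results of these data known.

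Log2(value + 1) was tested with limma 3.58.1 (R 4.3.3), two-sided with Benjamini-Hochberg adjustment over all genes reaching 10 in at least 3 libraries, and a gene was called at an adjusted p under 0.05. The fold changes are on this log2 scale, which understates those of low genes. The 9 overexpression libraries and the 6 depletion libraries were fitted separately. Alternatives were other pseudocounts and filters, TMM and upper-quartile scaling, edgeR 4.0.16 and DESeq2 1.42.0 on the recovered reads, the compared groups alone, a replicate block, removal of each library's trend with mRNA A+T share, and each library left out. The procedure was also run on simulated data with few changed genes and the same spread in every group. The data here differ in both, so that run does not check the calls or the scaling.

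Members named in the text were, per comparison, the 5 largest rises and 5 largest falls whose groups were apart and whose higher mean reached 100, with members opposed between comparisons, the MRPS18 paralogs, MRPS30, MRPS36 and up to 3 genes per functional list. Others were named after their values were seen. Sequence features came from GENCODE 29 and RefSeq (GRCh38), matched by symbol: 34273 names matched a current symbol and 1183 an older one, 20289 did not, and 28 were left out.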

Additional observations from a re-analysis of the deposited data

How the results depend on the processing

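The median log2 fold change of the 75 members in ZC3H7A against control was 0.2321 under TMM, 0.2828 under upper-quartile scaling, 0.1892 in edgeR, 0.2121 in DESeq2 and 0.2024 with the A+T trend removed, where 12 fell. In ZC3H7B against control it was 0.3444 under TMM and 0.3811 under upper-quartile scaling, with 5 falls under each, 0.3088 in edgeR and 0.3020 in DESeq2. In ZC3H7A against ZC3H7B it was 0.0066 under TMM, -0.0022 in edgeR and -0.0031 with the A+T trend removed, and in DD against Parental -0.0182 in DESeq2. Upper-quartile scaling moved the median of all genes by 0.12 with ZC3H7A and 0.13 with ZC3H7B, and members minus all genes was 0.23 and 0.31 with and without it. That difference was 0.19 and 0.23 with the A+T trend removed. With the A+T trend removed, falls turned to rises for MRPL19 (0.3010), MRPL50 (0.5420), MRPS18C (0.3455) and MRPS36 (0.8079) with ZC3H7A and for MRPL1 (0.3183), MRPL19 (0.1266), MRPL50 (0.6300) and MRPS36 (0.7707) with ZC3H7B, and MRPL39, not called with ZC3H7B, was at 0.2089; the causes were not tested.

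With single libraries left out, 38 to 45 members rose and 16 to 20 fell with ZC3H7A (median 0.1376 to 0.1846), 43 to 45 rose and 7 to 9 fell with ZC3H7B (0.2158 to 0.2628), 8 to 22 were higher and 15 to 20 lower with ZC3H7A than with ZC3H7B (-0.0037 to 0.0295), and 6 to 12 rose and 5 to 10 fell in DD (-0.0339 to 0.0128). Calls over all genes moved too: 1561 rose in DD without DD replicate 1 and 3564 without Parental replicate 3. Replicate numbers were not taken as pairs: same-numbered samples correlated between -0.27 and 0.72, and not every sample correlated best with its own number. Between ZC3H7A and ZC3H7B, numbers 1 and 3 did so, at 0.54 and 0.72. Against the control only number 2 did so, at 0.11 with ZC3H7A and 0.13 with ZC3H7B, and between DD and Parental none did. Whether same-numbered overexpression samples shared a batch was not tested. With the replicate block, 41 rose and 19 fell with ZC3H7A, 46 and 9 with ZC3H7B, 17 and 18 between them, and 9 and 7 in DD. Over all genes the block gave 4411 higher and 3890 lower with ZC3H7A than with ZC3H7B, against 4232 and 3600 without it. In DD it gave 2168 rises and 2374 falls, against 2716 and 2732. For named genes, 1058 of 1118 values with no library left out kept direction and call, 30 lost the call, 21 gained it and 9 reversed; with a library left out, 588 of 624 kept both, 28 lost the call, 8 gained it and 0 reversed. The fall of MRPS22 with ZC3H7B was among those lost, at an adjusted p of 0.221 under TMM and 0.0648 in edgeR, and that of MRPL1 at 0.0864 under TMM. The depletion libraries were shallower, and precision for MRPS24, MRPL38 and MRPL30 is limited by their low values.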
